A study of Capra hircus and Bos taurus with 7 samples.

Results

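MiR-143, miR-145 and miR-126-3p, 3 microRNAs (miRNAs) best known from stromal, muscle and endothelial cells, were followed in extracellular vesicles of reconstituted milk powders. The members were the rows named miR-143, miR-145, miR-126, miR-199a, miR-199b, miR-199c or miR-214 once the species prefix and the arm were taken off. This rule found bta-miR-143, bta-miR-145 and bta-miR-126-3p, 3 of the 364 mature miRNAs (all carry bovine names), and the remaining names had no row among these 364. Extracellular vesicles are membrane-bound particles released by cells, and those sequenced here had been separated by size exclusion chromatography after the powder was dissolved in warm water. There were 3 libraries of whole goat (Capra hircus) milk powder and 3 of skimmed goat milk powder, each set lettered A to C, and 1 library of a commercial bovine (Bos taurus) powder. The labels name no breed, age, animal or lot, and do not say whether the letters stand for separate packs or repeat isolations, so every p-value reflects variation among libraries that could be technical repeats. Library totals ran from 5675489 reads in the bovine library to 11963849 in whole C, and a level is given as counts-per-million (CPM) of the miRNA reads of the same library.

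MiRNAs are short RNAs that guide Argonaute proteins to messenger RNAs and lower their output. MiR-143 and miR-145 are made from a shared primary transcript and are abundant in smooth muscle and other contractile or mesenchymal cells, where they help to hold the contractile state. MiR-126 lies in an intron of EGFL7, an endothelial gene, and is a classic endothelial miRNA that tunes the response to VEGF. In the goat assembly ARS1.2 of RefSeq, MIR143 and MIR145 are direct neighbours with no annotated gene between them, flanked by IL17B and CSNK1A1, and MIR126 lies within EGFL7. The mammary gland holds contractile myoepithelial cells, vessels and connective tissue beside its secretory epithelium. A level in vesicles cannot tell fewer vesicles from a cell type apart from less of a miRNA per vesicle.

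Of the 3 miRNAs, miR-143 was the 1 that every goat library held at a high level. It had 9755.5, 15745.67 and 17841.5 estimated reads in whole A, B and C, and 15502, 16602.5 and 19418.7 in skimmed A, B and C. These correspond to 1487, 1552 and 1491 CPM in whole powder and 1670, 2004 and 2441 CPM in skimmed powder. The whole libraries lay close together, the skimmed libraries were spread more widely, and the lowest skimmed library stood above the highest whole library. With these levels miR-143 ranked between 47 and 58 among the 364 miRNAs of the goat libraries. Its SD over the 6 goat libraries was 0.29 on the log2 CPM scale, where the median of the 64 miRNAs with a goat mean of at least 1000 CPM was 0.25. In 6 of the 7 libraries its estimated reads were not a whole number, and whether reads were divided with other entries was not tested.

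MiR-145, the cluster partner of miR-143, was present in some goat libraries and nearly absent from others. It had 0, 1029 and 3 reads in whole A, B and C, or 0, 101 and 0.25 CPM. In skimmed A, B and C it had 3, 389.5 and 129 reads, or 0.32, 47.0 and 16.2 CPM. Both powders therefore held libraries with and without it, and the groups overlapped. The highest library of each powder was the B library, and the A library of each powder had at most 3 reads. The floor of 3 reads for the count of 0 in whole A stands for 0.457 CPM, so the gap to whole B lies far outside counting error. Counting intervals and floors cover counting error only, because PCR copies were not told apart by molecular identifiers.

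MiR-126-3p was read in 2 of the 7 libraries. It had 188 reads in skimmed A and 361 in skimmed B, or 20.2 and 43.6 CPM, and 0 reads in skimmed C, in all 3 whole libraries and in the bovine library. In these 5 libraries 3 reads, the floor used here for a count of 0, stand for 0.251 to 0.529 CPM, and the upper 95% Poisson limits for 0.308 to 0.650 CPM. Skimmed powder thus included a library as empty of miR-126-3p as the whole libraries.

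**Figure D1:**
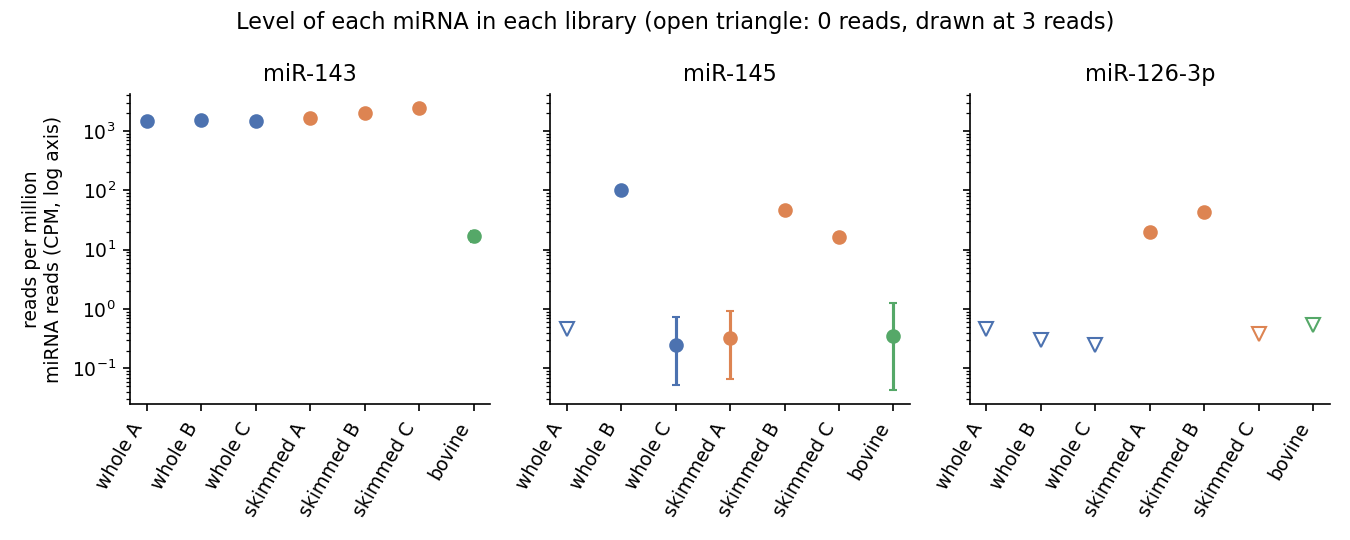
CPM of miR-143, miR-145 and miR-126-3p in each library on a log axis, with exact 95% Poisson intervals for counting error as bars; open triangles mark libraries with 0 reads, drawn at the level of 3 reads. MiR-143 lies between 1487 and 2441 CPM in the 6 goat libraries and at 16.8 CPM in the bovine library, while miR-145 and miR-126-3p are present in some libraries and near or at 0 in others.

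Nearly all reads of the group came from miR-143. The 3 miRNAs together took 0.149%, 0.165% and 0.149% of the miRNA reads in whole A, B and C, 0.169%, 0.209% and 0.246% in skimmed A, B and C, and 0.00172% in the bovine library. MiR-143 made up 93.9% of that sum in whole B, the lowest share of the goat libraries, and all of it in whole A. The sum follows miR-143 and says little of the other members.

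Although miR-143 and miR-145 are neighbours, their reads did not keep a fixed ratio. There were 15.3 reads of miR-143 for each read of miR-145 in whole B (95% Poisson interval of the miR-145 count, 14.4 to 16.3), 42.6 in skimmed B (38.5 to 47.1) and 151 in skimmed C (127 to 180). In whole C and skimmed A, with 3 reads of miR-145 each, the ratios were 5947 (2035 to 28838) and 5167 (1768 to 25057). In whole A miR-143 was 3252-fold higher, taken against a floor of 3 reads of miR-145 in that library. Taken against the upper 95% Poisson limit of a count of 0, it was 2645-fold higher. The ratio therefore varied by more than the counting intervals between libraries of the same powder. As miR-145 did not reach 10 reads in every goat library, no test of the ratio between powders was made. Reads of different miRNAs can differ in how well they are captured, so the size of a ratio is not a ratio of molecules, whereas its change between libraries does not depend on the library total.

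The near all-or-none pattern of miR-145 and miR-126-3p was frequent among the miRNAs of these libraries. A miRNA was counted as all-or-none where some goat library held 100 reads or more and some other held 10 or fewer. Of the 364 miRNAs, 123, or 33.8%, met this, among them 2 of the 3 members. Only 268 of the 364, all 3 members among them, reached 100 reads in some goat library and so could meet it. MiR-126-3p shared its pattern, at least 100 reads in skimmed A and B and at most 10 in the other 4 goat libraries, with 2 other miRNAs, miR-154b and miR-664a. No other miRNA shared the pattern of miR-145, at least 100 reads in whole B, skimmed B and skimmed C and at most 10 in the rest.

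Skimmed and whole goat powder were then compared across all miRNAs. The labels do not tie both powders to the same batch of milk, so skimming and any other difference between the products cannot be told apart. The test was edgeR's quasi-likelihood test on 209 miRNAs, and the threshold a Benjamini-Hochberg adjusted p of 0.05. Of the 3 members 0 passed in edgeR, where 1 of the 209 miRNAs, or 0.478%, passed. DESeq2's Wald test on the same 209 miRNAs called 13, or 18.3% of the 71 to which it gave an adjusted p, and limma-voom called 1; both called 0 members. Before adjustment, edgeR gave 1 member, miR-143, a p under 0.05, beside 22 of 209 miRNAs, or 10.5%. MiR-126-3p, with reads in 2 libraries, did not pass the filter on low counts and has no value in this fit.

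The mean level of miR-143 was 1510 ± 36.7 CPM in the whole libraries and 2038 ± 387 CPM in the skimmed libraries (SD, n = 3 each). Its log2 fold change, skimmed over whole, was 0.52 ± 0.14 (SE), a 1.43-fold difference after TMM scaling, with a p of 0.0066 before and 0.12 after edgeR's adjustment. By p it ranked 10 of 209 from the lowest. The CPM of miR-143 did not overlap between the powders, and 20 of the 209 miRNAs, or 9.57%, were likewise higher in skimmed without overlap. With each library left out in turn the log2 fold change was lowest without skimmed C, at 0.38 (edgeR adjusted p = 0.30). Other scalings of the libraries moved miR-143 and the median of all miRNAs together. Upper-quartile scaling shifted that median by -0.15, and miR-143 then stood at 0.37, or 0.49 above the median, against 0.48 above it with TMM.

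The mean level of miR-145 was 33.9 ± 58.5 CPM in the whole libraries and 21.2 ± 23.7 CPM in the skimmed libraries (SD, n = 3 each), so that in both powders the SD was larger than the mean. Its log2 fold change was -0.56 ± 2.48 (SE), with an edgeR adjusted p of 0.96. The direction rested on whole B, which held 1029 of the 1032 reads in whole powder. Without that library the value was 7.17, with an edgeR adjusted p of 0.34, and limma-voom on all 6 libraries also turned the sign (2.21, adjusted p 0.82). No direction can be read for miR-145 at this spread.

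MiR-126-3p had 549 reads in the skimmed libraries together and 0 in the whole libraries. Pooled over the 3 libraries it was 206-fold higher in skimmed powder, taken against a floor of 3 reads over the whole group. At the lower 95% Poisson limit of the skimmed count it was 189-fold higher. The pooled value was 104-fold without skimmed B, 212-fold without skimmed A and 299-fold without skimmed C. The Poisson limit covers counting error only and not the spread between libraries, and skimmed C had 0 reads. In fits over every miRNA with at least 1 read, edgeR's adjusted p was 0.36 and DESeq2's Wald test, added after the data were examined, gave 0.029. The latter called 22 of the 243 miRNAs to which it gave an adjusted p, or 9.05%.

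**Figure D2:**
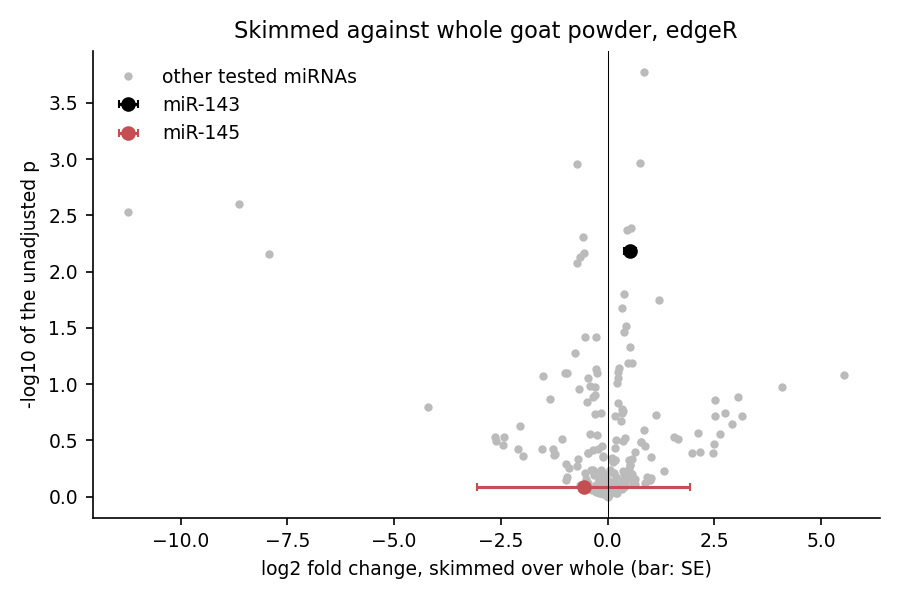
Log2 fold change of skimmed over whole goat powder (horizontal axis) against -log10 of the unadjusted edgeR p (vertical axis) for the 209 tested miRNAs, with SE bars for miR-143 and miR-145. MiR-143 lies at 0.52 ± 0.14 with a p of 0.0066, and the bar of miR-145, at -0.56 ± 2.48, spans 0.

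The profile of miR-143 over the 6 goat libraries was compared with those of the 267 other miRNAs that had at least 100 reads in 1 goat library or more. Likeness was the root mean square difference of log2(CPM + 1), each miRNA centred on its own mean. Nearest was miR-223, which is best known from myeloid cells, at a distance of 0.11, followed by miR-24-3p at 0.14 and let-7i at 0.16, where the median miRNA was at 1.16. A miRNA with the same level in all 6 libraries would lie at 0.26 from miR-143, so a small distance partly reflects how little miR-143 varied. The whole libraries held miR-223 at 1174 ± 32.2 CPM and the skimmed libraries at 1610 ± 110 CPM (SD, n = 3 each), and like miR-143 it did not overlap between the powders. MiR-24-3p and let-7i did overlap. For miR-126-3p the nearest were miR-154b (0.59) and miR-664a (0.67), with miR-502a next at 1.51. MiR-145 had no close neighbour, the nearest being miR-1949 at 1.503, miR-18a at 1.67 and miR-96 at 1.78. These distances describe the 6 libraries, which share library totals and preparation between miRNAs, and were not tested.

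**Figure D3:**
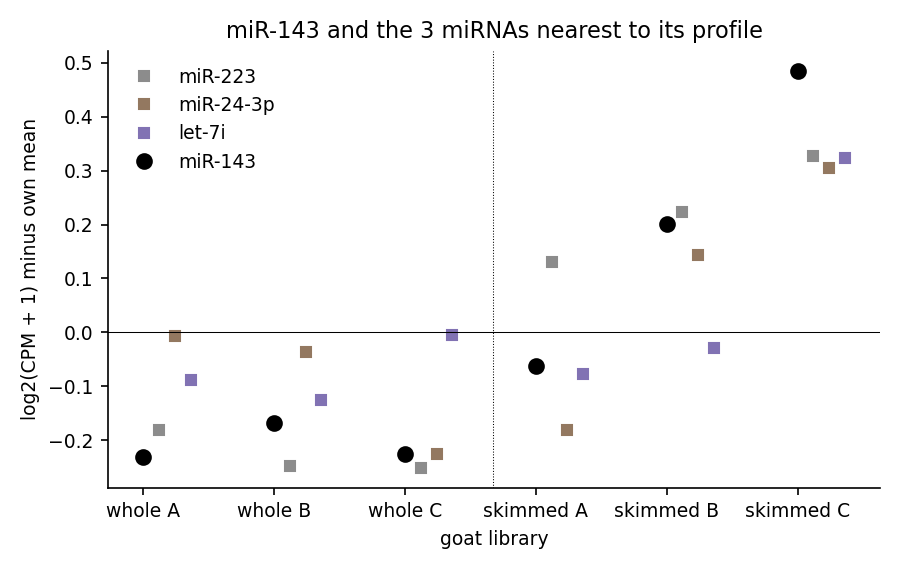
Level of miR-143 and of miR-223, miR-24-3p and let-7i in each goat library, as log2(CPM + 1) minus the miRNA's own mean over the 6 libraries; each point is 1 library. The 3 whole libraries of miR-143 lie below its mean, and skimmed B and C lie above it. Over the 6 libraries together miR-223 is nearest to miR-143, at a root mean square distance of 0.11, but not in every single library.

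In the bovine powder miR-143 was far lower than in any goat library. It had 95.5 estimated reads, or 16.8 CPM (exact 95% Poisson interval 13.7 to 20.7), against a goat mean of 1774 ± 380 CPM (SD, n = 6) and a lowest goat library of 1487 CPM. The goat mean was 105-fold higher, with an interval of 85.9 to 129 from the bovine count, and 69.2-fold higher when TMM factors over the 7 libraries replaced library totals. The median of the 126 miRNAs with a goat mean of at least 100 CPM stood at a log2 ratio of bovine over goat of -0.78, or -0.16 with those TMM factors, and relative to that median miR-143 stood at -5.94 and -5.95 (log2). With 1 bovine library, species, product and library cannot be told apart, and no test was made.

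This low bovine level was shared with a sizeable group of miRNAs. The bovine library lay below the goat range for 70 of the 126 miRNAs, or 55.6%, and 28, or 22.2%, were at least 50-fold below the goat mean, with miR-143 at rank 22 from the lowest. Of the 64 miRNAs with a goat mean of at least 1000 CPM, 3 lay farther below than miR-143. They were named after their values were seen: miR-155 (181-fold), miR-224 (133-fold) and miR-223 (122-fold). The bovine values of miR-145, 2 reads or 0.35 CPM, and of miR-126-3p, 0 reads, lay inside the goat range, which reached down to 0 reads for both. For miR-145 the goat mean was 78.2-fold above the bovine value, with a counting interval of 21.6 to 645, and the goat median 23.5-fold above it, while the goat libraries themselves spanned 0 to 101 CPM.

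**Figure D4:**
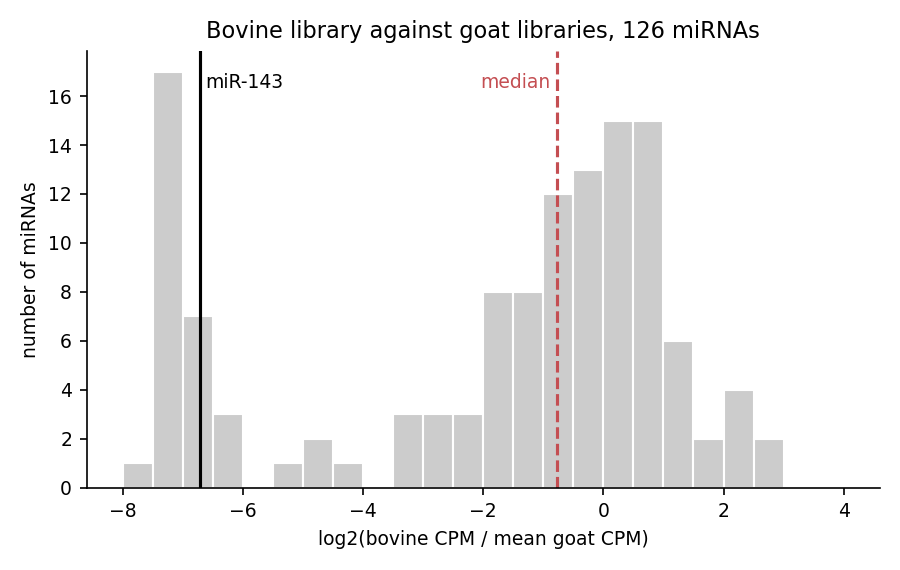
Number of miRNAs by log2 ratio of bovine CPM over mean goat CPM, for the 126 miRNAs with a goat mean of at least 100 CPM; the solid line marks miR-143 and the dashed line the median. MiR-143, at -6.72, falls in a separate group of 28 miRNAs at least 50-fold below the goat mean, while the median lies at -0.78.

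Marker lists for other cell types were measured in the same libraries. Epithelial miRNAs (7 rows, led by miR-200c) took 9.85% to 10.4% of the reads in whole, 10.5% to 11.4% in skimmed and 10.6% in bovine powder, and their sum did not overlap between the goat powders. Of the 7 rows 0 passed in edgeR, with 3 values above and 4 below 0 and 3 at an unadjusted p under 0.05, beside 10.5% of all 209 miRNAs. DESeq2's Wald test called 3 of them, miR-200c and miR-375 as higher and miR-141 as lower in skimmed, and 0 without a filter, while limma-voom called 0. Over all miRNAs with an adjusted p, that test called 18.3% of 71 with the filter and 9.05% of 243 without it. Leukocyte miRNAs (6 rows, led by miR-155) took 0.278% to 0.291% in whole, 0.324% to 0.342% in skimmed and 0.0106% in bovine powder, so that their sum was lowest in the bovine library and likewise did not overlap between the goat powders. Among single miRNAs, 20 of 209, or 9.57%, were higher in skimmed without overlap, whereas the leading leukocyte row, miR-155, did overlap. How often sums of other rows do not overlap was not tested. Of the 5 tested leukocyte rows 0 passed in edgeR, with 3 values above and 2 below 0. Those at an unadjusted p under 0.05 went opposite ways, miR-223 with a log2 fold change of 0.55 and the lymphoid miR-150, which had 13.6 ± 5.56 CPM in the whole libraries and 0.040 ± 0.070 CPM in the skimmed libraries (SD, n = 3 each), with -7.93. DESeq2's Wald test called 1, miR-223, as higher in skimmed, and without a filter 1, miR-150, as lower, while limma-voom called 0. The erythroid list of 3 names had 1 row, miR-486. The striated muscle list of 7 names had 2 rows, led by miR-499, at 136 ± 18.4 CPM in whole, 122 ± 86.5 CPM in skimmed (SD, n = 3 each) and 1.41 CPM in bovine powder. The other muscle row, miR-1, was at 9.31 ± 15.4, 70.8 ± 43.4 (SD, n = 3 each) and 0.352 CPM in the same order, with a log2 fold change of 3.06 ± 1.82 (SE; edgeR adjusted p = 0.64). MiR-486 stood at 47.1 ± 24.7, 26.3 ± 11.5 (SD, n = 3 each) and 0.176 CPM. None of the rows of these 4 lists was at 0 in all 7 libraries. The part of these cell types in the values of miR-143 was not tested.

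Other miRNAs linked to vessels and connective tissue had values in both directions. Of 20 names 16 rows were found and 12 passed the filter on low counts. In edgeR 0 rose and 0 fell past the threshold, with 5 values above and 7 below 0. At an unadjusted p under 0.05 there were 2, beside 10.5% of all 209 miRNAs. Among these 12 DESeq2's Wald test called 1, miR-125b, as lower in skimmed, beside 18.3% of the 71 miRNAs to which it gave an adjusted p, and limma-voom called 0. Without a filter the Wald test, with 15 rows of the list, again called 1, miR-125b, as lower, beside 9.05% of 243 miRNAs. The median edgeR log2 fold change of the 12 was -0.38, beside 0.03 over all 209 miRNAs. The most abundant, miR-99a-5p, had 5024 ± 326 CPM in the whole libraries and 3927 ± 183 CPM in the skimmed libraries (SD, n = 3 each). Its log2 fold change was -0.26 ± 0.11 (SE; edgeR adjusted p = 0.38), and its value of 8118 CPM in the bovine library lay above both goat means. The list as a whole took 0.961% to 1.12% of the reads in whole, 0.701% to 0.829% in skimmed and 1.88% in bovine powder, so that its sum did not overlap between the goat powders and was highest in the bovine library. That bovine sum was led by miR-125b (9309 CPM) and miR-99a-5p. How often sums of other rows are lower in skimmed without overlap was not tested. Of the 16 rows 13 had a bovine level below their goat mean, 4 of them below the goat range. The other 3 (miR-125b, miR-140 and miR-99a-5p) lay above the goat range. Of the 126 miRNAs with a goat mean of at least 100 CPM, 82 were below their goat mean and 70, or 55.6%, below the goat range. No such minimum was set for the 16 rows, and some of them, such as miR-195, had hardly any reads.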

How the data were processed

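The 7 deposited tables give estimated counts per mature miRNA, per the file headers and because many values are fractions. No scaling had been applied to these deposited estimated counts as far as the values show, because each library has its own total. RNA was extracted with a total RNA kit and sequenced as single-end reads of 50 bases, per the labels' protocols. The aligner, counter, miRNA reference and build were not given in the sources used here. No coordinates are therefore printed, and the treatment of goat reads that mismatch a bovine entry is not known.

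CPM used the total of all 364 miRNAs. Tests used edgeR 4.0.16 in R 4.3.3 on counts rounded to whole numbers of the 6 goat libraries, with the default filter (209 miRNAs kept), TMM factors of 0.928 to 1.067, quasi-likelihood tests and adjustment after Benjamini and Hochberg. The SE is the log2 fold change divided by the square root of F. DESeq2 1.42.0, limma-voom (limma 3.58.1), other scalings and filters, a replicate block and leaving out each library were alternatives. On simulated data for this comparison (209 miRNAs), edgeR called 78.9% of the miRNAs changed 2-fold above 1000 CPM and 3.2% of those at lower levels. Of those changed 4-fold it called every one above that level and 24.8% at lower levels, and 5.2% of all calls were false. Each of the 20 simulations drew counts with the mean levels, library sizes and fitted spread of the goat libraries, and changed 40 miRNAs. The share of false calls depends on that number of changes, so it cannot be carried over to the calls reported here.

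The members, the lists and the tests were chosen with earlier results of these data known. Named beside the members were the 3 miRNAs nearest to each in profile and the most abundant row of each list. Others, such as miR-224, miR-125b, miR-150 and miR-1, are named for a count or a call and were chosen after their values were seen.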

Additional observations from a re-analysis of the deposited data

How the results depend on the processing

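The count of 1 miRNA past the threshold in edgeR was 0 with library totals, with upper-quartile or DESeq2 size factors, with let-7a-5p left out and with the replicate block, 2 without a filter, 4 when the mean had to reach 100 CPM, 13 with DESeq2's Wald test and 22 with that test without a filter, and 0 to 1 with each library left out in turn. No member passed in any of these except miR-126-3p in DESeq2's unfiltered Wald test, which called 1 member. MiR-143 stayed above 0 in all 17 fits (log2 fold change 0.37 to 0.60, adjusted p 0.087 to 0.42). MiR-145 turned above 0 with limma-voom (2.21) and the replicate block (3.11), and ranged from -1.94 to 7.17 with each library left out; without whole B, 3 of its 1032 whole reads remain. Letters did not pair the libraries by the rule set, since the correlations of same-letter deviations were 0.20, 0.14 and 0.06 and not all over 0.1, although each library correlated best with its own letter. The goat-to-bovine ratio of miR-143 was 69.2 with TMM factors over the 7 libraries. These factors also shifted the median log2 ratio of bovine over goat by 0.61. The cause of the goat-to-bovine ratio itself was not tested. The median log2 ratio of miR-143 to miR-145 over the goat libraries, 9.78, ranged from 7.23 to 12.34 with each library left out. For miR-145 and miR-126-3p, 3 reads stand for 0.251 to 0.529 CPM. Their low counts occurred in libraries of large and of small total. Whole C, with the largest total, held 3 reads of miR-145 and 0 of miR-126-3p. Whole A, with the smallest goat total, held 0 of both, and skimmed B held 389.5 and 361. Whether these counts depend on the library total was not tested.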
